A study of Mus musculus with 16 samples.

Results

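The 8 genes described here, Crem, Rfx2, Sox30, Tbpl1, Mybl1, Tcfl5, Fhl5 and Ovol1, encode transcription factors and cofactors of meiotic and postmeiotic male germ cells. They were taken by name from the GENCODE vM21 annotation of the mm10 mouse genome, and they are 8 of 21938 protein-coding genes on chromosomes 1 to 19, X and Y. Chromatin was profiled by AutoCUT&RUN, in which an antibody tethers a nuclease to a histone mark and the DNA fragments it frees are sequenced, in haploid spermatids sorted alive from testes by DNA content. The KO mice were hemizygous males (ΔH2A.B/Y) of a single CRISPR/Cas9 strain in which all 3 X-linked H2A.B genes, encoding a short histone H2A variant, were disrupted, and the WT mice (+/Y) were their brothers. All were unmated, 2 months old and derived from B6;SJLF1/J zygotes by backcrossing to C57BL/6J, and the disruption was carried by the whole animal, not by spermatids alone. Each of 4 animals, 2 KO and 2 WT in 2 brother pairs, gave 1 library each for H3K4me3, H3K27me3, H3K9me3 and the control antibody IgG, or 16 libraries in 8 groups of 2.

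These proteins act as a spermatocyte completes meiosis and a round spermatid builds the sperm head and tail. MYBL1 (A-MYB) drives the gene program of pachytene spermatocytes. TCFL5, OVOL1 and RFX2 act in meiotic or postmeiotic germ cells, RFX2 through X-box elements of flagellar and ciliary genes. CREM, with its testis coactivator FHL5 (ACT), SOX30 and the TBP-like factor TBPL1, activates genes of the postmeiotic spermatid, among them protamines and transition proteins. H3K4me3 is the mark of active or poised starts, H3K27me3 that of Polycomb-silenced genes and H3K9me3 that of heterochromatin.

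The libraries held 784360 to 3394830 distinct fragments for H3K4me3, 200457 to 3806026 for H3K27me3, 5009169 to 6746382 for H3K9me3 and 159611 to 270598 for IgG. The level of a gene is given below as CPM per kb, the number of distinct fragments centred in its windows per 1000000 distinct fragments of the library and per kb of window. Start windows cover 1 kb on either side of every annotated transcript start of the gene. The labelled cell type was checked with markers: 9 of 9 spermatid genes (such as Prm2 and Acrv1) and 6 of 6 spermatocyte genes (such as Sycp3) were above the median H3K4me3 of all genes, and 0 of 6 spermatogonial, 0 of 6 Sertoli and 0 of 5 Leydig genes were. The spermatid and spermatocyte genes had medians of 7.18 and 6.15 CPM per kb, so this check cannot tell spermatids from spermatocytes. The targeted genes could not check the genotype labels, as between 1 and 8 fragments overlapped each of H2afb1, H2afb2 and H2afb3 in every animal over its 4 libraries.

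The sequence just upstream of the start is shown for 4 genes chosen because they differ in CpG content and in the width of the H3K4me3 domain described below. It is taken from RefSeq (GRCm38.p6) and given 5′ to 3′ on the gene's strand, up to 250 bases before the RefSeq start, without bases that a GENCODE exon covers. Capitals mark matches on either strand to the cAMP-response element TGACGTCA or its 5-base part TGACG, the MYB sites CAACNG and TAACNG, the X-box arm GTTGCC, the SOX site ACAAT or the TATA box TATAAA. Rfx2 (chr17:56831014-56831258, minus strand), Sox30 (chr11:45980060-45980309, plus strand), Tcfl5 (chr2:180642709-180642941, minus strand) and Fhl5 (chr4:25242877-25243102, minus strand) read as follows.
Rfx2: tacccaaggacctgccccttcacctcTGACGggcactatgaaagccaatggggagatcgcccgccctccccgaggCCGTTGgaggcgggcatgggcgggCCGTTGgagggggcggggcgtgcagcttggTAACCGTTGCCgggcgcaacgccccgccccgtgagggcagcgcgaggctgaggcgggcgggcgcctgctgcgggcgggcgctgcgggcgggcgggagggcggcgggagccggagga
Sox30: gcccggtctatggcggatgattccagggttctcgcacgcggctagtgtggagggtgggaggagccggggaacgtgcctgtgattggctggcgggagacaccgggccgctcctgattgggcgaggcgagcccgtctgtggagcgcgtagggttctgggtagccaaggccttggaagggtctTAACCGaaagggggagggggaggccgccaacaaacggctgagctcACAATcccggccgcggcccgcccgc
Tcfl5: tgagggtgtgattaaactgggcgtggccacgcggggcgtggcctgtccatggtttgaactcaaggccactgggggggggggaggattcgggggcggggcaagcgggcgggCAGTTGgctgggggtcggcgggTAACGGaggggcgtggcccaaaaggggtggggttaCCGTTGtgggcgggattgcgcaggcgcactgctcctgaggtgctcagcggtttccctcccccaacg
Fhl5: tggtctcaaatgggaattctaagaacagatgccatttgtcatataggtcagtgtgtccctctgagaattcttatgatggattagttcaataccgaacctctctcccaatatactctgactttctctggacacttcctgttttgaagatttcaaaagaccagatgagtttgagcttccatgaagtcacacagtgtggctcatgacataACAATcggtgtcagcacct

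The upstream sequence of Rfx2 held 30 CpG dinucleotides in 245 bases, more than 94.1% of 32851 RefSeq promoters of mouse. Sox30 held 23 in 250 bases and Tcfl5 held 18 in 233 bases. Fhl5 was the exception, with 2 CpG dinucleotides in 226 bases and 41.6% G and C, against a median of 6 CpG and 52.4% over all promoters. MYB letters of the CAACNG form lay 3 times before Rfx2 and 2 times before Tcfl5, and 29.3% of all promoters hold them at least once in 250 bases. The TAACNG form lay once before each of Rfx2, Sox30 and Tcfl5, against 19.8% of all promoters, and before Rfx2 it overlaps a CAACNG match and the X-box arm GTTGCC, which 10.4% of promoters hold. TGACG was found only before Rfx2 (17.8% of promoters), ACAAT before Sox30 and Fhl5 (27.7%), and neither TGACGTCA (1.55%) nor TATAAA (12.4%) before any of the 4. The sequence before Tbpl1 was searched too and held none of these letters. Such matches are letters in a short window and not evidence of binding.

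All 8 genes carried H3K4me3 at their starts above the median of all genes, which was 1.23 CPM per kb. Fhl5 (ENSMUSG00000028259, chr4:25199908-25242876), the CREM coactivator, had the highest level, 10.8 and 13.4 CPM per kb in the KO libraries and 8.92 and 10.8 in the WT libraries. Its mean of 11.0 ± 1.84 (SD, n = 4) was above that of 95.3% of genes, whose levels are averaged over all their start windows. With the outermost window alone for each gene, the CpG-poor start shown above was above 91.0% of genes. Tcfl5 (ENSMUSG00000038932, chr2:180621956-180642708), a helix-loop-helix factor, had 12.3 and 11.97 CPM per kb in KO and 4.32 and 9.12 in WT, where the lower value rested on 8 fragments in the shallowest H3K4me3 library. Its mean was 9.42 ± 3.68 (SD, n = 4), the widest spread among the 8 genes, and the KO libraries lay above both WT libraries. Sox30 (ENSMUSG00000040489, chr11:45980310-46017994), an HMG-box factor, had 7.79 and 11.2 CPM per kb in KO and 6.37 and 8.94 in WT, so that the genotypes overlapped.

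Ovol1 (ENSMUSG00000024922, chr19:5549136-5560646), a zinc-finger factor, was at 7.55 and 5.27 CPM per kb in KO and 8.25 and 6.36 in WT. It was the only member of the 8 whose mean was lower in KO, with overlapping libraries, and its window also holds the start of the antisense gene AC126029.1, whose fragments could not be told apart. Tbpl1 (ENSMUSG00000071359, chr10:22703879-22731938) had 6.97 and 8.11 CPM per kb in KO and 5.01 and 5.51 in WT, without overlap. Rfx2 (ENSMUSG00000024206, chr17:56775897-56831013) had 7.10 and 5.42 CPM per kb in KO and 4.38 and 4.95 in WT, also without overlap. Crem (ENSMUSG00000063889, chr18:3266048-3337748) had 5.93 and 6.13 CPM per kb in KO and 3.89 and 4.87 in WT, again without overlap. Mybl1 (ENSMUSG00000025912, chr1:9667415-9700209) had the lowest level over all start windows, 3.73 and 3.01 CPM per kb in KO and 2.33 and 3.71 in WT, with overlap. Its mean of 3.20 ± 0.665 (SD, n = 4) still exceeded 68.4% of genes. In the window of its outermost start alone Mybl1 was at 8.15 ± 1.21 and was not the lowest of the 8.

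**Figure D1:**
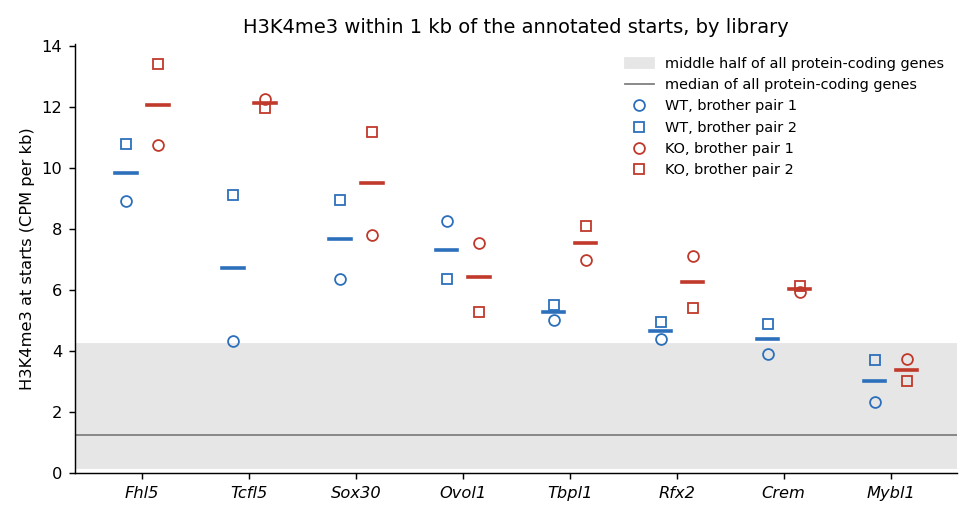
H3K4me3 at the annotated starts (CPM per kb) in each of the 4 libraries, with KO in red, WT in blue, circles for brother pair 1, squares for brother pair 2 and bars for the mean of 2 libraries. The grey band is the middle 50% and the grey line the median of 21938 genes; all 32 points lie above that median, from 2.33 for Mybl1 to 13.4 for Fhl5.

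The order of these levels changed when a single window was used for each gene. In the window of the outermost start alone, Crem came first with 12.4 ± 3.50 CPM per kb (SD, n = 4), followed by Tbpl1 with 11.3 ± 2.44 and Fhl5 with 11.0 ± 1.84, which lay within their spread of each other. Rfx2 followed with 9.84 ± 1.997, Sox30 with 8.57 ± 2.04, Mybl1 with 8.15 ± 1.21 and Tcfl5 with 7.51 ± 3.24, and each of these neighbours again differed by less than the spread. Ovol1 came last with 5.99 ± 1.89 CPM per kb, above 69.5% of genes and within its spread of Tcfl5. In these windows the KO libraries lay above the WT libraries in Rfx2 and Tbpl1 only. The share of all genes with this order was not worked out for these windows, so it is given as a description.

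Crem, the best known of the group for its alternative promoters, has 26 annotated starts in 6 separate windows (numbered from 5′ to 3′), and 3 of these windows carried H3K4me3. Its outermost window, with 8 starts, held 13.3 and 17.1 CPM per kb in KO and 10.9 and 13.3 in WT. That window also holds the start of the noncoding gene Gm6225, whose fragments could not be told apart. Window 4 (chr18:3308723-3310900, 3 starts) held 12.3 and 8.39 in KO and 4.10 and 6.32 in WT, and window 5 (chr18:3298452-3300559, 5 starts) held 9.15 and 7.97 in KO and 7.26 and 7.18 in WT. Windows 2, 3 and 6, with 10 starts between them, held 5, 7 and 4 fragments over the 4 libraries, or 0.140 to 0.278 CPM per kb. The 3′-most window, with 6 annotated starts, had 4 fragments where the outermost window had 305.

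**Figure D2:**
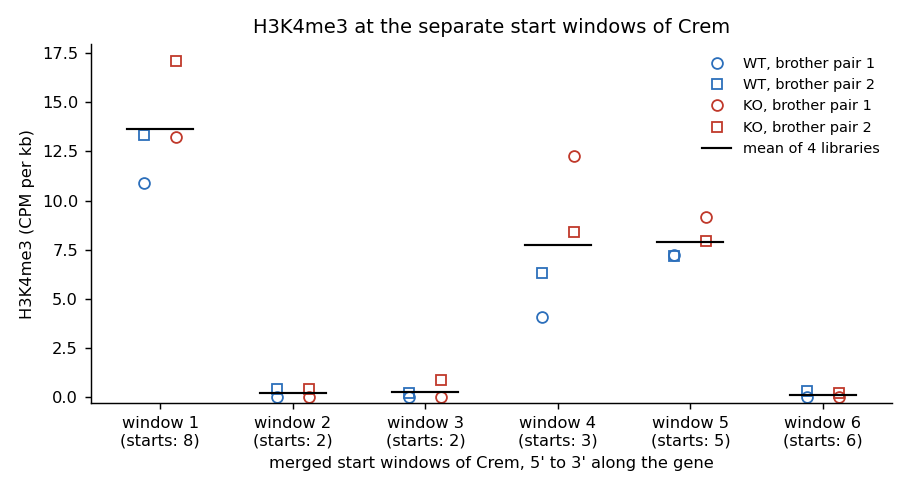
H3K4me3 (CPM per kb) in the 6 merged start windows of Crem, ordered from 5′ to 3′, for each library, with the black bar at the mean of 4 libraries. Windows 1, 4 and 5 average 13.7, 7.77 and 7.89 CPM per kb, and windows 2, 3 and 6 lie at or near 0.

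The other genes with more than 1 start window carried the mark at a single start region. Rfx2 held 164 H3K4me3 fragments in its outermost window and 8 in the inner one, Tbpl1 held 239 and 3, and Mybl1 held 164, 0 and 1. The outermost window of Mybl1 alone was at 8.17 ± 1.72 CPM per kb (SD, n = 4), against 3.20 ± 0.665 over its 3 windows together.

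The marked region around the start differed in width among the genes. Width was measured after seeing the data as the run of 1-kb bins around the outermost start with a mean of at least 4 times the genome average, and 12071 genes had such a run, with a median of 4 kb and a 90th percentile of 11 kb. Sox30 had the widest, 23 kb, wider than that of 99.3% of these genes, and it reached 19 kb into a gene of 37685 bp. Its width in single libraries was 23 and 23 kb in KO and 17 and 22 kb in WT. Tcfl5 followed with 11 kb (15 and 11 kb in KO, 8 and 14 kb in WT), most of it downstream of the start, with the highest bin 2 kb into the gene at 43.3 times the genome average. Crem had 10 kb (11 and 11 kb in KO, 8 and 10 kb in WT), a region that also holds the start of the noncoding gene Gm6225. Rfx2 had 9 kb (8 and 9 kb in KO, 5 and 10 kb in WT), and Tbpl1, Mybl1 and Fhl5 had 6 kb each. Ovol1 was narrowest with 4 kb, the median of all marked genes. In WT replicate 1, the shallowest of the H3K4me3 libraries, the width was the lowest or tied for the lowest in all 8 genes, and the part of depth in this was not tested.

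**Figure D3:**
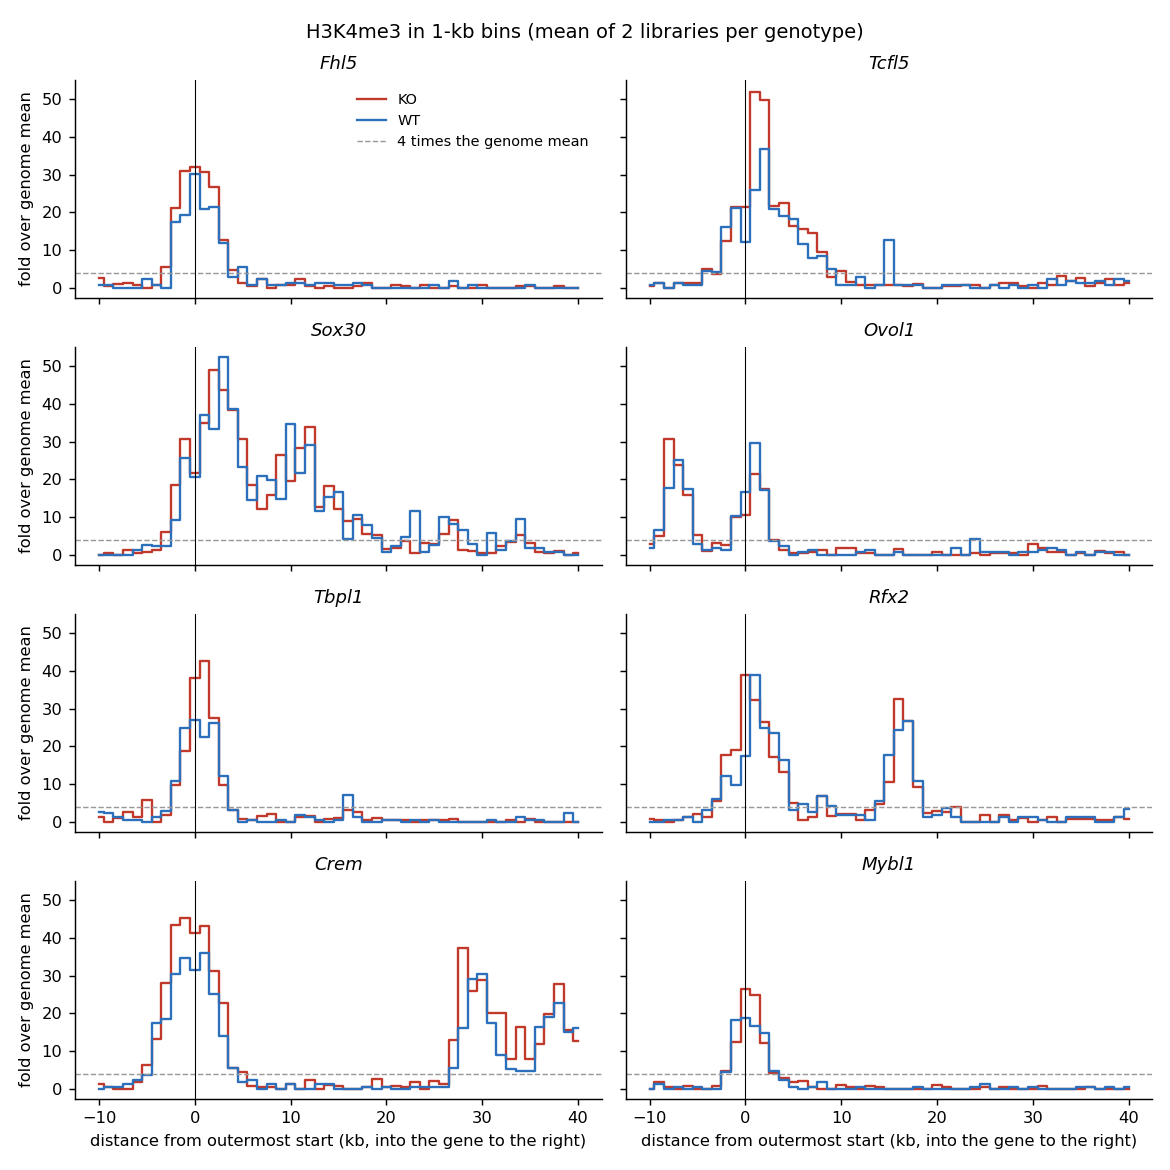
H3K4me3 in 1-kb bins from 10 kb before to 40 kb past the outermost start, as fold over the genome average, with the mean of 2 KO libraries in red and of 2 WT libraries in blue. The run above the dashed line (4 times) spans 23 kb in Sox30 and 4 kb in Ovol1, and the longest further runs inside a gene are those of Crem and Rfx2.

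Further runs of marked bins lay inside 5 of the genes, and those of 5 or more bins were in Crem and Rfx2, the longest of them. Sox30 had 3 shorter ones, with 15 to 38 fragments each and at most 8.74 times the genome average, and Tbpl1 and Tcfl5 had 1 bin each, with 11 and 10 fragments. The bin of Tcfl5 rests on WT replicate 1, the shallowest H3K4me3 library, with 7 of its fragments and 24.3 times the genome average there, against at most 1.61 times in the others. That library also held 3 of the 11 fragments of the Tbpl1 bin and 8 of 19 in the Sox30 run at 22 to 23 kb. As each library counts equally in the mean, these also lean on it. In Crem a run of 14 bins (chr18:3297248-3311247) covered start windows 4 and 5 and the DNA between them, with 685 fragments. In Rfx2 a run of 5 bins 14 to 18 kb into the gene (chr17:56812513-56817512) reached 28.4 times the genome average, with 46 and 93 fragments in KO and 30 and 53 in WT, although no transcript start of any GENCODE gene lies in it. A second run of 5 bins at the 3′ end of Rfx2 (chr17:56774513-56779512) held 29 and 119 fragments in KO and 21 and 58 in WT, again without an annotated start. The search ended at the last bin of this run, past the end of the gene, so the run may be longer than given. Ovol1 had a separate run of 5 bins upstream, which holds the start of its neighbour Ap5b1. Over whole gene bodies, Sox30 had the highest H3K4me3 of the 8, 4.69 ± 0.276 CPM per kb (SD, n = 4), and Mybl1 the lowest, 0.699 ± 0.173.

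H3K27me3 fragments were few at the starts of the 8 genes, as at the median gene, which was at 0.174 CPM per kb. Ovol1, at 0.222, lay above this median, Rfx2, at 0.172, lay next to it, and the other 6 were at 0.168 or below. Over the 4 libraries, Mybl1 and Fhl5 had 0 fragments, Sox30 and Tcfl5 1 each, Rfx2 2, Tbpl1 3, Crem 4 and Ovol1 6. For Fhl5 and Mybl1, 0 of 7609887 H3K27me3 fragments allows up to 3, which covers counting error only. Each gene tested had at least 10 fragments over both targets. The 8 genes reached this through H3K4me3 alone, so that their being called higher (8 of 8 by the moderated quasi-Poisson test, Benjamini-Hochberg adjusted over all genes, where 61.7% of 17728 genes were called higher and 30.7% lower) is not read as a result, and the ratios are given as a description. The ratio of pooled rates was 144 for Crem (95% exact counting interval 56.0 to 531, adjusted p = 1.44e-11) and 25.8 for Ovol1 (11.6 to 71.5, adjusted p = 1.72e-10). With H3K27me3 set at a floor of 3 fragments over the group, the ratio was 59.6 for Fhl5 and 54.3 for Mybl1. The exact lower 95% limits, from the observed counts, were 47.95 and 43.67. The test for this pair of marks was not tried on simulated data. Each CPM is relative to the total of its own antibody's libraries, so these ratios compare shares and not the number of marked nucleosomes.

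Against IgG, with 0 to 6 fragments at these starts, the 8 genes again passed the filter through H3K4me3 alone, and 8 of 8 were called higher, where 71.8% of 14657 genes tested were, which is likewise given as a description. Rfx2 had 172 H3K4me3 fragments and 1 IgG fragment, a ratio of 17.7 (95% exact counting interval 3.13 to 701, adjusted p = 0.00132). Crem had 584 and 6, a ratio of 9.99 (4.56 to 27.3, adjusted p = 0.00130), and Sox30 146 and 2, a ratio of 7.49 (2.04 to 62.5, adjusted p = 0.00415). The ratio of Crem was 19.6 (5.39 to 162) in KO and 5.10 (1.96 to 18.9) in WT. WT replicate 1 held 3 of its 6 IgG fragments, and without that animal the fitted log2 change of Crem went from 3.32 to 4.04 and that of Sox30 from 2.91 to 3.63. Without KO replicate 2 that of Sox30 was 2.27, and without KO replicate 1 Rfx2 had no IgG fragment. With median-ratio scaling the log2 changes were lower, 2.44 in place of 4.14 for Rfx2, 1.62 for Crem and 1.203 for Sox30. Tbpl1 and Mybl1 had 242 and 165 H3K4me3 fragments and no IgG fragment. With IgG set at the floor of 3 fragments over the group, their ratios were 8.28 and 5.65. The exact lower 95% limits, from the observed counts, were 6.68 and 4.54. With the animal as a replicate block, 7 of the 8 genes were called, Sox30 being lost (adjusted p = 0.0530), and 6543 genes in place of 10615. Sox30 was also lost within 500 bp of the start (adjusted p = 0.0780), and both Sox30 and Tcfl5 where every deposited fragment was counted. With WT libraries alone (0 genes called by the limma-moderated test, 4513 at an unadjusted p under 0.05) or median-ratio scaling (0 genes called higher and 43 lower), none of the 8 was called. Over gene bodies, where Crem, Rfx2, Sox30 and Fhl5 had at least 10 IgG fragments and the other 4 passed through H3K4me3, 8 of 8 genes were called higher than IgG, against 43.8% of 18411 genes, and 5 of 8 with the replicate block, without Fhl5, Mybl1 and Tbpl1, against 20.5% of these genes. Bodies include the start windows, and without these windows 4 of 8 were called higher (Crem, Rfx2, Sox30 and Tcfl5), against 24.2% of 16534 genes, and with WT libraries alone 0 of 8. As Tbpl1, Mybl1, Tcfl5 and Ovol1 passed only through H3K4me3, these body counts are likewise given as a description and not read as a result.

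Of the other marks, H3K27me3 at starts could be tested against IgG only for Crem, which had 4 and 6 fragments, a ratio of 0.0693 (95% exact counting interval 0.0144 to 0.292). Crem passed the filter only with its IgG fragments, so its call as lower (adjusted p = 0.00305, not called with the replicate block), where 4.85% of 8364 genes were, is not read as a difference. Over gene bodies H3K27me3 was below IgG in 4 of the 6 genes that passed the filter (Crem, Rfx2, Sox30 and Fhl5), against 24.8% of 15142 genes, and in 0 with the replicate block. The highest H3K27me3 body count was that of Fhl5, 22 and 1 fragments in KO and 15 and 0 in WT, and no bin of it formed a run. H3K9me3 at starts ranged from 2 fragments for Sox30 to 35 for Crem over 23146258 fragments, and neither Crem nor Tbpl1, which alone passed the filter, was called against IgG (limma-moderated test, adjusted p = 0.253 for Crem), where 3.01% of 9294 genes were, 1749 had an unadjusted p under 0.05, and limma-voom called 4960 genes and 1 of the pair. Over bodies H3K9me3 was below IgG in 2 of 8 genes, Fhl5 (adjusted p = 0.0215) and Rfx2 (adjusted p = 0.0401), against 13.0% of 17837 genes, and in 0 with the replicate block. A single run of H3K9me3 bins was found, 32 to 33 kb into Sox30 (chr11:46011810-46013809), with 30 and 12 fragments in KO and 42 and 10 in WT. Its highest bin was at 6.10 times the genome average of H3K9me3. The bin at 33 kb also held 3 of the IgG fragments, or 10.2 times the genome average of IgG. The run was thus not told apart from background.

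The main comparison asked whether loss of H2A.B changed these marks. For H3K4me3 at starts none of the 8 genes was called between KO and WT, and neither was any of 14432 genes tested (0.0%). This held for the moderated quasi-Poisson test, with 422 genes at an unadjusted p under 0.05, and for limma-voom, with 337. Tcfl5 had the largest log2 change of the 8, 0.62 ± 0.32 (SE), KO over WT, with an adjusted p of 0.999 by the limma-moderated test. It was higher in KO within both brother pairs, by 7.93 and 2.85 CPM per kb. Without WT replicate 2 the change of Tcfl5 was 1.48, with WT then resting on 8 fragments of the shallowest H3K4me3 library. Leaving out WT replicate 1 instead lowers the change, as replicate 2 was at 9.12 CPM per kb and replicate 1 at 4.32. Tbpl1 had a log2 change of 0.53 ± 0.29 (adjusted p = 0.999) and was higher in KO by 1.96 and 2.60 CPM per kb within the pairs. The log2 change was 0.40 ± 0.30 for Crem, 0.31 ± 0.33 for Sox30, 0.30 ± 0.30 for Fhl5, 0.30 ± 0.31 for Rfx2, -0.06 ± 0.31 for Mybl1 and -0.21 ± 0.31 for Ovol1, all with an adjusted p of 0.999.

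Under median-ratio scaling these changes kept their signs. Elsewhere the sign was not stable for 3 genes. For instance, Sox30 was at -0.18 where every deposited fragment was counted and at -0.08 without KO replicate 2, Ovol1 at 0.14 without KO replicate 2, and Mybl1 at 0.46 without WT replicate 2. Mybl1 was also positive without KO replicate 2, with 24.5 CPM in KO replicate 1 and 21.9 pooled over WT. The fit gives deeper libraries more weight, so that Mybl1 has a negative change although its mean level was higher in KO. In 4 of the 8 genes (Crem, Rfx2, Tbpl1 and Tcfl5) both KO libraries lay above both WT libraries, which was so for 26.2% of all genes tested, and in 0 of 8 both lay below, against 6.84%. Within the brother pairs Sox30 (1.42 and 2.25 CPM per kb) and Fhl5 (1.83 and 2.63) were also higher in KO. Ovol1 was lower in both pairs (-0.705 and -1.09), and Mybl1 went both ways (1.40 and -0.696). The share of all genes with the same sign in both pairs was not worked out. The median log2 change was 0.30 over the 8 genes and 0.14 over all genes tested, and median-ratio scaling took these to 0.16 and 0.00, lowering each value above by 0.14. With 2 animals per genotype an exact permutation test of a single gene cannot give a p below 0.333.

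Over gene bodies no gene was called for H3K4me3 either (0.0% of 18143 by either tool, 82 and 51 at an unadjusted p under 0.05). The largest change of the 8 was that of Tbpl1, a log2 change of 0.46 ± 0.29 (SE, adjusted p = 0.9996 by the limma-moderated test). Ovol1 was at 1.84 ± 0.0371 CPM per kb in KO and 2.05 ± 0.0798 in WT (SD, n = 2), the only body of the 8 with both KO libraries below both WT libraries. Crem, Tbpl1 and Tcfl5 were the 3 with both above, and these counts compare with 14.5% of all genes above and 7.78% below.

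For the other antibodies none of the 8 genes, and no gene of those tested, was called between KO and WT by either tool. At starts none of the 8 passed the filter for H3K27me3 (7756 genes tested, of which 49 by the moderated test and 105 by limma-voom had an unadjusted p under 0.05) or IgG (163, with 4 and 0). For H3K9me3 at starts (8273, with 69 and 81) Crem and Tbpl1 passed, and Crem had 4 and 12 fragments in KO and 5 and 14 in WT. Over bodies the gene nearest to the threshold of those that passed was Rfx2 for H3K27me3 (13540 genes tested, 33 and 7 at an unadjusted p under 0.05), with 7 and 8 fragments in KO, 2 and 0 in WT and a log2 change of 2.36 ± 1.92 (SE). For H3K9me3 (17263, with 41 and 97) it was Sox30, with 75 and 29 fragments in KO and 85 and 45 in WT, a log2 change of -0.43 ± 0.48. For IgG (5181, with 155 and 71) it was again Rfx2, with 3 and 9 fragments in KO and 2 and 2 in WT. In both cases Rfx2 passed the filter only through its KO libraries. These held 15 H3K27me3 and 12 IgG fragments, against 2 and 4 in WT, so neither is read as a difference.

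Fragment lengths were compared without a test, as the share of fragments of at most 120 bp, shorter than a nucleosome, among those of at most 120 or at least 150 bp. At the starts of the 8 genes in the H3K4me3 libraries this share was 39.5% (130 of 329) and 40.3% (323 of 802) in KO, and 33.6% (45 of 134) and 26.1% (114 of 437) in WT. The KO libraries lay above the WT libraries, and the difference of the means, 10.1 percentage points with a pooled SD of 3.77, was close to that over all gene starts, 12.03 with a pooled SD of 2.13. With every deposited fragment the share was 32.8% and 39.5% in KO and 20.2% and 25.5% in WT, and within 500 bp of the starts the difference in pair 1 was 1.59 points and that in pair 2 was 16.7. The Wilson 95% interval of WT replicate 1, 26.1 to 41.9%, overlapped those of both KO libraries. Rfx2 showed the difference within both pairs, by 8.77 and 9.51 points, and Ovol1 by 7.98 and 5.29. Crem differed by 5.64 and 22.9 points and Sox30 by 32.6 and -0.173. Fhl5 went the other way in pair 1, with differences of -2.12 and 20.2, and Tcfl5 (0.641 and 18.6) and Mybl1 (2.08 and 11.5) differed mainly in pair 2. Tbpl1 had the smallest mean difference, with 1.67 and 1.86 in the pairs. At single genes the WT shares rest on 8 to 132 fragments a library. The same members held 1 to 27 such fragments per library for the other antibodies, too few to compare. Over all gene starts the KO mean was also above the WT mean for the IgG control, by 5.48 percentage points with a pooled SD of 1.23. The difference there was 6.70 with a pooled SD of 5.58 for H3K27me3 and 1.76 with a pooled SD of 2.84 for H3K9me3.

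**Figure D4:**
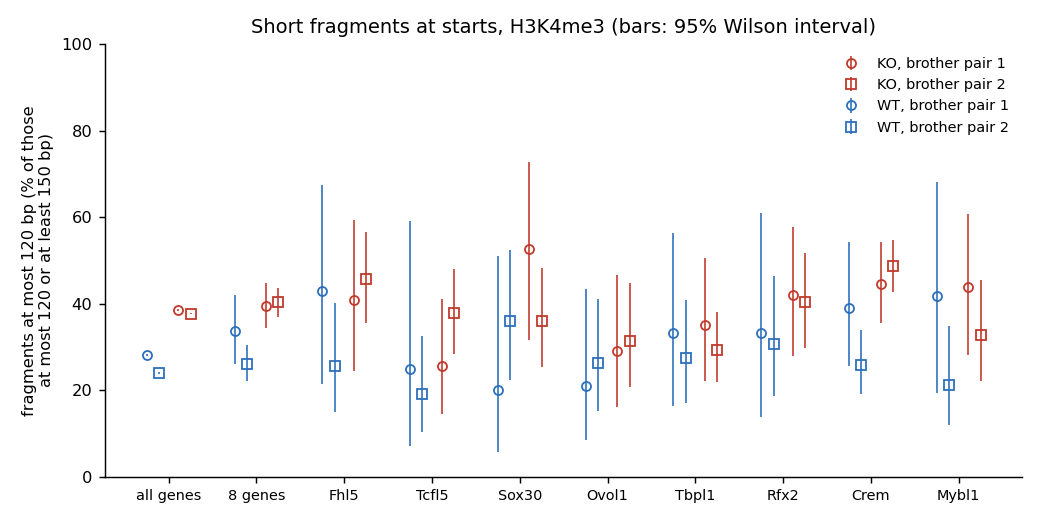
Share of H3K4me3 fragments of at most 120 bp among those of at most 120 or at least 150 bp at starts, for all genes, for the 8 genes summed and for each gene, by library, with 95% Wilson intervals that cover counting error only. Over the 8 genes the KO libraries are at 39.5% and 40.3% and the WT libraries at 33.6% and 26.1%, and at single genes the intervals overlap between genotypes in most cases.

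Relatives of 7 of the factors, all but Tcfl5, were compared as a description, using 25 chosen genes of the same families, so that highest and lowest below refer to these genes and not to whole families. Of these, 15 were above the median H3K4me3 of all genes and 15 above its H3K27me3 median of 0.174 CPM per kb, while the 8 genes counted 8 and 1. In the MYB family, Mybl2 had 0.929 and Myb, the factor of blood progenitors, 0.197 CPM per kb of H3K4me3, both below the 3.20 of Mybl1, and Myb had 6.26 CPM per kb of H3K27me3. Of 5 SOX genes Sox3, with 3.58, was highest and Sox9, the Sertoli cell factor, lowest with 0.151, and Sox9 had 26.2 CPM per kb of H3K27me3. All levels of relatives are averaged over all start windows of a gene, and by fragment count the order can differ. Sox6, at 1.28 CPM per kb, held 182 H3K4me3 fragments against 55 for Sox3. Of the FHL genes Fhl4 was highest with 8.19 and Fhl1 lowest with 0.109. In the TBP family Tbp was at 4.04, and Tbpl2, a factor of the oocyte, had 0 H3K4me3 fragments in its windows. Of the OVO genes Ovol2 had 9.85 and Ovol3 0.314 CPM per kb. Among the RFX genes Rfx1 had 10.2 and Rfx2 5.46, each over all of its start windows. Window 1 of Rfx2 alone had 10.3 ± 2.60, which is not set against Rfx1, whose windows were not looked at singly. Rfx1 also had 6 IgG fragments at its starts, or 2.93 ± 4.36 CPM per kb, above 98.9% of genes. By fragment count Rfx4, with 331 H3K4me3 fragments, was above Rfx1, with 162. Rfx6, a factor of pancreatic islets, had 0.158. The 3 CREB and ATF genes ranged from 3.08 for Creb1 to 13.8 for Creb3l4, itself a spermatid gene, which also had 4.06 CPM per kb of H3K27me3. In the test of H3K4me3 against H3K27me3, 13 of the 22 relatives that passed the filter were called higher and 8 lower, where 61.7% and 30.7% of all genes tested were, counts that the filter shapes in the same way. Between KO and WT none of the 18 tested for H3K4me3 at starts was called.

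**Figure D5:**
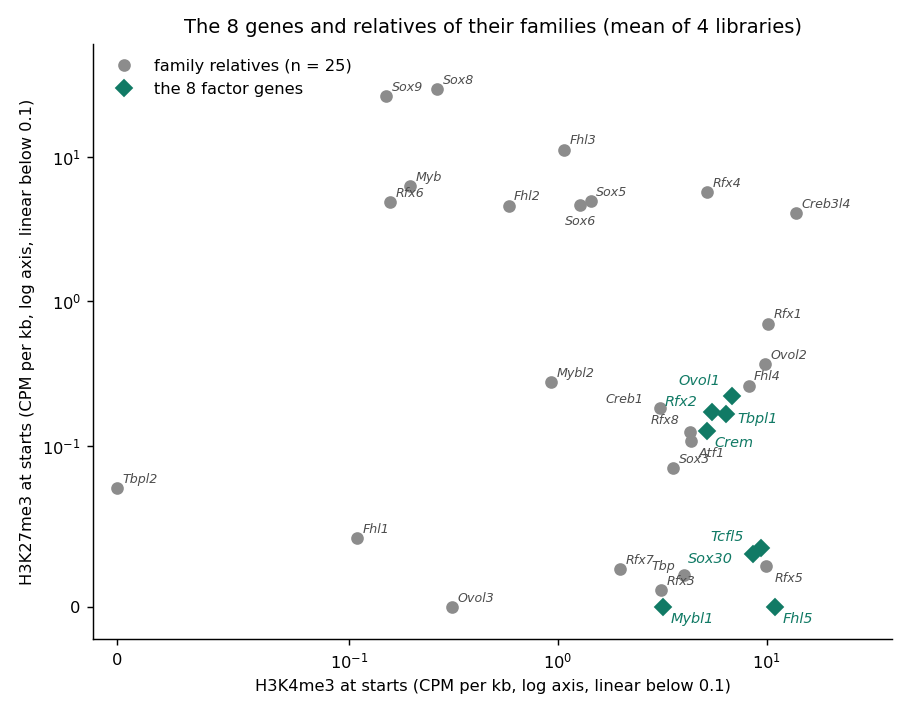
Mean H3K4me3 against mean H3K27me3 at starts (CPM per kb, 4 libraries each, log axes that are linear below 0.1) of the 8 genes in green and 25 family relatives in grey. The 8 genes lie between 3.20 and 11.0 for H3K4me3 and at or below 0.222 for H3K27me3, while Sox8, Sox9, Fhl3 and Myb lie high for H3K27me3 and low for H3K4me3.

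The partners of these factors were marked in the same libraries. All 12 genes of a list of partners and coregulators, chosen with earlier results known, were above the median H3K4me3 of all genes. With 0 to 3 IgG fragments each, they could pass the filter against IgG only through H3K4me3, so no count of calls is given. They ranged from 1.79 CPM per kb for Crebbp, the CREB coactivator, to 12.2 for Taf7, a TFIID subunit, with 5.16 for Kif17, the kinesin that carries the FHL5 protein, and 8.18 for Gtf2a1l, the testis form of TFIIA. Camk4, a kinase that acts on CREM, was the one with the most H3K27me3, and had 300 H3K4me3 and 230 H3K27me3 fragments. Of 15 spermiogenesis genes downstream of the factors, 15 were above the median of all genes, again with too few IgG fragments (0 to 6) for a count of calls. The highest were Smcp, a capsule protein of sperm mitochondria, with 16.4 CPM per kb and Hspa1l, a testis heat shock protein, with 15.8, and the lowest were Ift172, of ciliary transport, with 2.18 and Prm1, the protamine, with 3.03. These levels are averaged over all start windows of a gene, and by fragment count the order differed. Ift172 held 277 H3K4me3 fragments against 261 for Hspa1l, and Crebbp held 181 against 205 for Taf7. The windows of these genes were not looked at singly. Between KO and WT none of the 12 and none of the 15 was called for H3K4me3 at starts.

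Across the 16 libraries the mean log2(CPM + 1) of the 8 genes at starts correlated most closely with Lpgat1, Gm10306, Hdhd2, Slc33a1 and Haus2, each with r = 0.989, out of 19675 genes. These genes had 5.87 to 14.6 CPM per kb of H3K4me3. The points share their antibodies, and the value largely contrasts 4 H3K4me3 libraries with 12 others.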

How the data were processed

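Spermatids were sorted from testes by Hoechst and propidium iodide staining, and AutoCUT&RUN libraries were sequenced as 25 × 25 bp pairs, with up to 24 libraries per lane. The authors aligned reads to mm10 with Bowtie2 (version 2.3.4.3 per the processing notes) and deposited lists of fragment coordinates (unit: other, neither a count nor a score per gene). Identical coordinates made up 33.6 to 83.4% of the deposited fragments although duplicate marking is stated, so each was counted once here.

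Distinct fragments were assigned by their midpoint to windows within 1000 bp of any GENCODE vM21 transcript start and to gene bodies. Each gene with at least 10 fragments was fitted by a quasi-Poisson model with the library total as offset, and the F test took its dispersion, at least 1, from limma's squeezeVar (two-sided, Benjamini-Hochberg adjusted over all genes tested, called under 0.05). KO and WT were compared with 4 libraries, marks with 8. The test was tried on simulated data, where with added spread between replicates it called too many genes for KO against WT in H3K27me3. Only KO against WT for each antibody and H3K4me3 against IgG were simulated, all at starts. Contrasts of a mark with H3K27me3, of H3K27me3 or H3K9me3 with IgG, and all those over bodies were not, so their calls are less secure. Replicate numbers mark brother pairs (methods), same-numbered libraries share number strings in their titles whose meaning the labels do not give, and the deviations of same-numbered libraries correlated at 0.309 for H3K4me3, 0.222 for H3K27me3, 0.301 for H3K9me3 and 0.152 for IgG. Counting intervals, Wilson intervals and floors (3 fragments) cover counting error only.

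The 8 genes, the gene lists and the tests were chosen with earlier results of these data known. The text names all 8 genes, in each KO and WT comparison the one with the smallest unadjusted p, the highest and lowest relative of each family, the 2 highest and 2 lowest downstream genes and the 5 genes of most similar pattern. Which partners to name, and the relatives Sox8 and Fhl3, were picked after their values were seen. Alternatives were every deposited fragment, windows of 500 bp, the outermost start, bodies without starts, limma-voom, median-ratio scaling, a minimum of 1 fragment, a replicate block, WT libraries alone, other length limits and leaving out each replicate. Python 3.11.15, numpy 2.4.6, pandas 2.3.3, scipy 1.17.1, matplotlib 3.10.9, R 4.3.3 and limma 3.58.1 were used.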

Additional observations from a re-analysis of the deposited data

How the results depend on the processing

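Between KO and WT, 0 of the 8 genes were called under any alternative run (358 of 358 single-gene values), and the replicate block called 0 genes in every such comparison. When a replicate was left out, the lone library being assumed to vary like the others, the genes called ranged from 0 to 1 for H3K4me3 at starts, 0 to 21 for H3K27me3 at starts, 0 to 277 over H3K27me3 bodies (277 without KO replicate 1), 0 to 8 over H3K9me3 bodies and 0 to 27 over IgG bodies.

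In the mark contrasts, 373 of 458 single-gene values kept their side of the threshold, 71 lost the call and 14 gained it. The log2 change had the other sign in 12 of the 458, none of them called in either setting; 6 of these were H3K9me3 against IgG over bodies with median-ratio scaling, where the median of the 8 went from -1.26 to 0.46. H3K4me3 against H3K27me3 called all 8 genes in each setting. H3K4me3 against IgG at starts called 43 genes (0 of the 8), all lower, with median-ratio scaling, 6543 with the replicate block and 0 (0 of the 8) with WT libraries alone. Over bodies it called 5136 genes (4 of the 8) without start windows, 4159 (5) with the replicate block and 0 (0) with WT alone. H3K27me3 against IgG at starts called 2451 genes with WT alone. With every deposited fragment 7 of the 8 passed the filter and 4 were called lower, as were 3432 of 15879 genes. The replicate block called 0 of the 8, Crem alone being tested, and none of the 8 passed the filter, so that 0 could be called, within 500 bp, at the outermost start, with WT alone and in each leave-one-out fit (0 to 0). Over bodies it called 3503 genes (0 of the 8) with the block, 3661 (0) with WT alone and 5170 to 8304 (1 to 4) with a replicate left out, 5170 without KO replicate 1. H3K9me3 against IgG at starts called 4092 genes (3 of the 8) with every deposited fragment, 30 within 500 bp, 65 at the outermost start, 4960 (1) with limma-voom, 2267 with median-ratio scaling (2205 higher and 62 lower, against 15 higher and 265 lower without it), 461 with a minimum of 1 fragment, 0 with the replicate block, 0 with WT alone and 3 to 34 with a replicate left out. Over bodies it called 10025 (7), 13429 (6 by limma-voom), 129 (0 by median-ratio scaling), 1 (0 by the block), 0 (0 with WT alone) and 646 to 1311 (0 to 0) with a replicate left out, the first of these with every deposited fragment. The causes were not tested.

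With every deposited fragment, window 5 of Crem was at 11.3, window 1 of Tbpl1 at 13.7 and window 1 of Mybl1 at 10.005 CPM per kb. Domain width was also measured at 3 and 6 times the genome average and in each genotype, alternatives chosen after seeing the data, and 25 of 32 widths moved by no more than the spread between libraries, with Sox30 at 21 to 23 kb and Ovol1 at 4 to 5 kb. IgG depth, 791157 fragments in all, limits every contrast with it.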
